A study of Arabidopsis thaliana with 88 samples.

Results

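QQS (AT3G30720), BNS (AT1G73177) and SUP (AT3G23130) are 3 Arabidopsis thaliana genes known for epialleles, states of a gene that differ in DNA methylation and not in sequence and that can pass to the offspring. They were taken by name from the 62018 loci of the Araport11 tables, of which 26928 are protein-coding genes. Bisulfite sequencing of leaf DNA, which reads unmethylated cytosines as T, gave 88 libraries from 32 natural accessions, which are inbred lines of wild origin and carry numbers. No accession was treated, and each library came from mature leaves of 2 to 3 plants grown on soil at 21 °C. A replicate was a separate round of sowing, growth and collection, with 1 library for 3 accessions, 2 for 13, 3 for 5 and 4 for 11. Accession 6909 is Col-0, the reference line, and 6911 is Cvi-0.

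QQS is an orphan gene with no known relative outside this species, and its product lowers leaf starch and binds the transcription factor subunit NF-YC4. BNS, also called APC13, encodes a small subunit of the anaphase-promoting complex, a ubiquitin ligase that drives exit from cell division, and it is known to gain methylation in inbred plants that lack the chromatin remodeller DDM1. SUP encodes a zinc finger repressor that keeps stamens out of the centre of the flower, and its methylated and silenced clark kent epialleles were found in mutagenised lines. Plants methylate cytosines in the CG context through MET1, in the CHG context through CMT3 and in the CHH context through DRM2 and CMT2, where H is any base but G. Methylation in CG alone is common inside active genes, and methylation in all 3 contexts marks silenced transposable elements (TEs).

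Values are methylation levels of a locus in a library, deposited as fractions and given here as percentages. Each gene has a value for its body and another for its promoter, a stretch of 400 bp centred on the gene start. No read numbers came with the values, so their depth is unknown and a level of 0 or 100% may rest on few reads. Where the CHH value was exactly 1 the region was treated as without data in all contexts, and where the CHG value was exactly 1 that context was treated as missing, a reading made from the values. Other CG values of exactly 1 were kept as 100%, and in CG a true 100% cannot be told apart from missing data. Fewer methylated cytosines and fewer cells that carry the methylated state cannot be told apart in these leaf pools. The p-values of accession differences are set against the spread between growth rounds of an accession. Those of the mean difference between gene body and promoter are set against the spread between accession means. Gene coordinates are on the TAIR10 build.

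QQS lies on chromosome 3 (chr3:12349047-12349933, plus strand, 887 bp), and all of it falls inside the annotated TE fragment AT3TE51150. Its gene body was heavily methylated in most accessions and free of CG methylation in 4. Over 31 accessions the gene-body CG level was 68.6 ± 32.0% (SD over accession means), with a median of 83.7%. For the single library of accession 9512 no data remained at QQS. Among 26042 protein-coding genes, the mean level of QQS stood at percentile 98.0 and its SD over accessions at percentile 99.0, where the median gene had a mean of 6.01% and an SD of 5.89 percentage points. The accession means split into 4 under 5%, 4 from 5% to 50% and 23 over 50%.

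In all 8 libraries of accessions 1254, 6069, 6244 and 6911 the QQS gene body had a CG level of 0%. Reads were present in these accessions, because each had at least 1 library with a CHG or CHH level above 0, of which the highest was 5.26% in CHG in accession 6911. The next accession in the order, 6909 (Col-0), had 11.1%, 70.4%, 30.4% and 30.9% in replicates 1 to 4. Its range of 59.3 percentage points was the widest of any accession at this locus, and its levels were all above those of the 4 accessions at 0%. Accession 6024 had 31.2% and 43.3%, accession 5856 had 35.7%, 52.6%, 33.3% and 34.9%, and accession 6184 had 45.9% and 44.1%. These 4 accessions with intermediate means had overlapping replicate ranges between neighbours in the order.

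Accession 6076 followed with 62.2% and 50%, a range that overlapped neither that of 6184 below it nor that of 10012 above it. Upward of it, the QQS gene-body CG level was 75.3 ± 7.25% in accession 10012 (n = 3), 76.5% in the single library of 9845 and 77.9 ± 4.08% in 9412 (n = 2). It was 78.9 ± 6.53% in 8366 and 80.7 ± 3.91% in 5779 (n = 3 each), and 83.5 ± 3.16% in 8244 (n = 2). Accessions 6966, with 83.7 ± 5.14%, and 9518, with 84.1 ± 4.47% (n = 4 each), stood beside 6189 with 84.4 ± 3.63% (n = 2). Among these the replicate ranges of neighbours in the order overlapped.

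Higher in the order were 5210 with 86.8 ± 7.98%, 6220 with 87.3 ± 9.14% and 4807 with 87.9 ± 14.3% (n = 4 each). Accession 9470 had 88.2 ± 7.88% (n = 2) and 6021 had 89.4 ± 4.74% (n = 4). Accessions 1741 and 9888 had 90.9 ± 7.97% and 91.2 ± 9.43% (n = 3 each). Among these high accessions no neighbours in the order were separated by their replicate ranges. The highest QQS levels were 91.8 ± 6.54% in 9905 (n = 2), 92.8 ± 6.43% in 5772, 93.5 ± 8.41% in 9588 and 93.9 ± 5.01% in 5784 (n = 4 each), 95.3 ± 2.14% in 9057 (n = 2) and 100% in the single library of 5486. Of the 30 pairs of neighbours in the whole order, 4 did not overlap, namely 6911 and 6909, 6184 and 6076, 6076 and 10012, and 9057 and 5486. The single library of 5486 gives no replicate range, and its level of 100% may rest on few reads, so that last pair shows no separation.

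**Figure D1:**
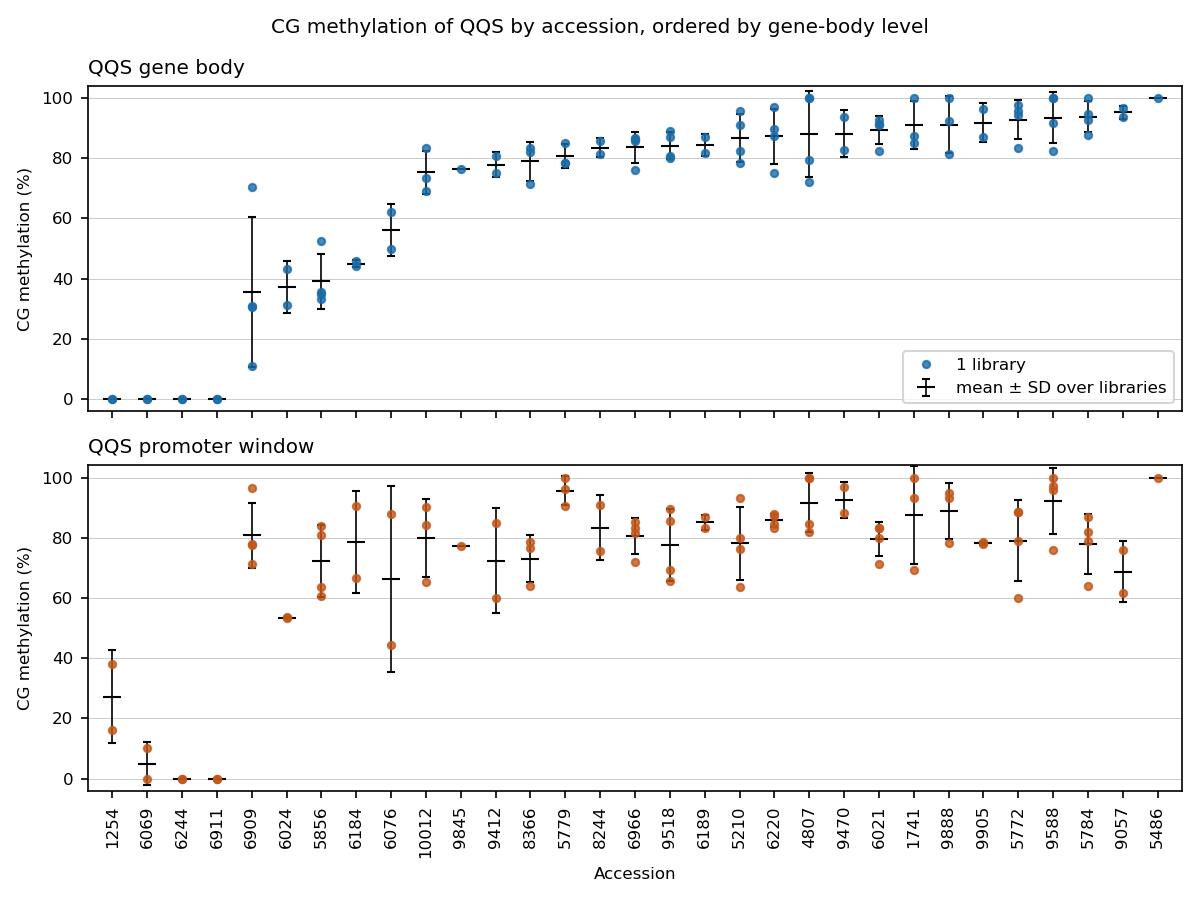
CG methylation level of QQS (percent, vertical axis) in each library (points) with the mean ± SD over the libraries of an accession (bars), for the gene body above and the promoter window below, with accessions on the horizontal axis ordered by gene-body level. The gene bodies of 4 accessions sit at 0%, Col-0 (6909) spreads over 11.1% to 70.4%, and 23 accession means lie over 50%.

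The difference between accessions was larger than the spread between replicates. A one-way F-test over accessions, with variance moderated by limma and Benjamini-Hochberg adjustment over all loci of the table, gave F = 29.9 and an adjusted p of 1.37e-23 for QQS gene-body CG. Such calls were common in this table, since 64% of all loci tested and 77.1% of the protein-coding genes were called. The growth round, tested beside accession in the same way, gave an adjusted p of 0.957 at QQS and called 0% of all loci (4.55% of loci had an unadjusted p under 0.05). At QQS gene-body CHG the growth-round adjusted p was 0.923, where 0.0025% of loci were called. Within growth rounds 1 to 4, the SD of QQS gene-body CG over accessions was 29.2, 23.2, 32.6 and 31.9 percentage points, and each round held at least 1 library at 0%.

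CHG and CHH methylation of the QQS gene body were also well above those of most genes. The CHG level was 26.3 ± 12.6% over 31 accessions, at percentile 98.5 among protein-coding genes, whose median mean was 0.434%. Accessions 1254 and 6069 had 0% in both libraries, 6244 had 2.63% and 0%, and 6911 had 0% and 5.26%. The order of the others ran up to 45.3 ± 13.9% in 4807 and 50.2 ± 5.49% in 9588 (n = 4 each), and 26 accession means lay between 5% and 50%. Col-0 had CHG levels of 6.90%, 32.7%, 20.5% and 23.3% in replicates 1 to 4, and its lowest and highest libraries were the same as in CG. Only 1 of 30 pairs of neighbours in the CHG order did not overlap, that of 6911 and 8244. Accession 8244 had 16.1 ± 6.06% (n = 2).

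The accession difference in QQS gene-body CHG passed the same moderated F-test with an adjusted p of 3.09e-09, in a table where 20.2% of all loci and 13.4% of protein-coding genes were called. In CHH, the QQS gene-body level was 3.73 ± 2.05%, with a lowest accession mean of 0.263% in 1254 and a highest of 7.94 ± 5.54% in 4807 (n = 4). The CHH difference was not called, with an adjusted p of 0.123 by limma, in a table where 13.9% of all loci and 8.49% of protein-coding genes were called. On an arcsine square root scale, which gives low levels more weight, the adjusted p of QQS gene-body CHH was 0.00347. The 4 libraries of accession 4807 show the replicate spread in CHH, with 13.3%, 2.94%, 12.2% and 3.38%.

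**Figure D2:**
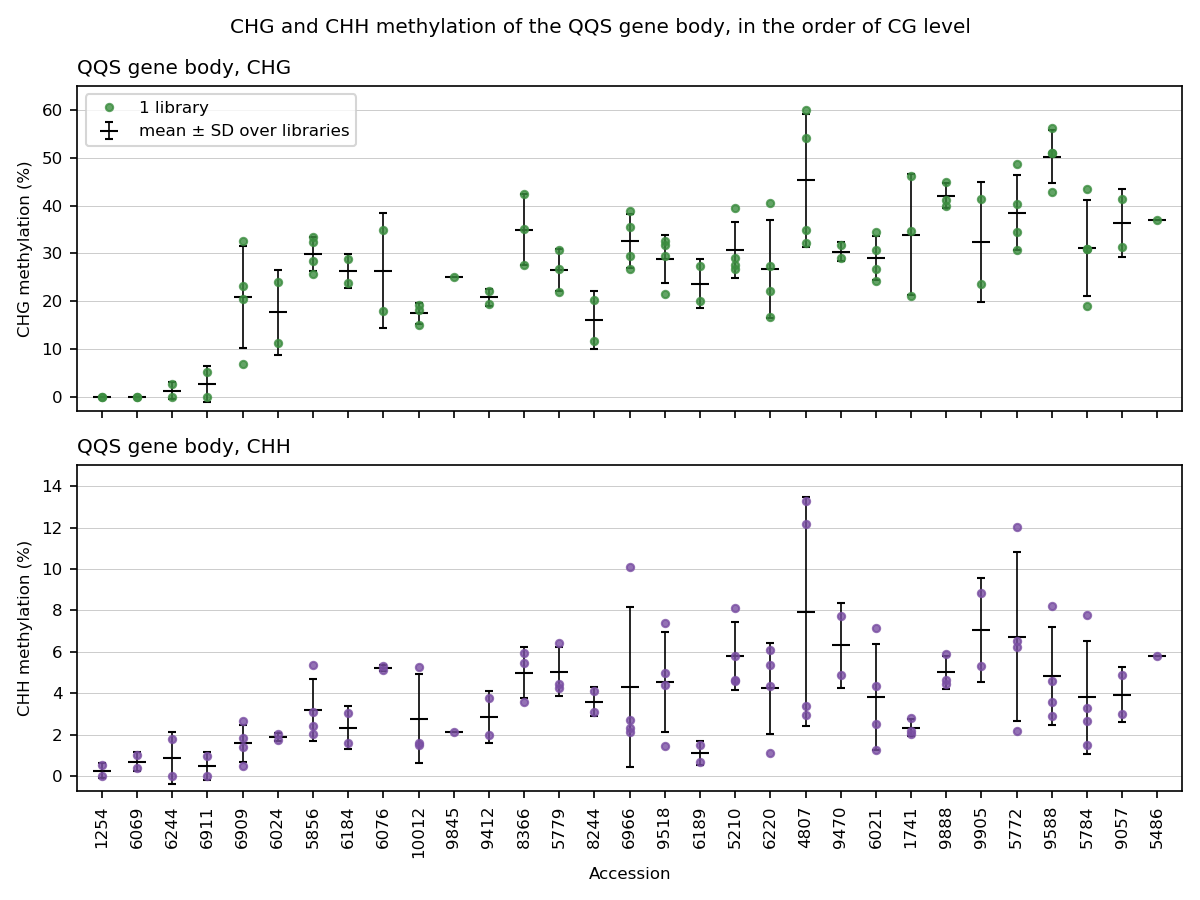
CHG (above) and CHH (below) methylation level of the QQS gene body in percent, with points for libraries, bars for the mean ± SD of an accession, and accessions in the order of their CG level. The 4 accessions at 0% in CG had CHG means of 0% to 2.63%, and the CHH means of the 31 accessions ran between 0.263% and 7.94%.

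The level of QQS can be set beside that of TE genes, which in the same accessions had gene-body means of 75.4% in CG, 34.3% in CHG and 7.18% in CHH. QQS exceeded the TE-gene mean of the same accession in 21 of 31 accessions in CG, in 4 of 31 in CHG and in 2 of 31 in CHH. It exceeded the mean of protein-coding genes of the same accession in 27, 29 and 29 of 31 accessions in these contexts.

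The promoter window of QQS (chr3:12348847-12349246) shares its downstream part with the gene body. Its CG level was 71.2 ± 26.7% over 31 accessions, at percentile 98.2 among protein-coding genes, whose median mean was 1.20% there. It was 0% in both libraries of 6244 and of 6911, 0% and 10.0% in 6069, and 38.1% and 16.2% in 1254. Accession 1254 therefore carried CG methylation in the promoter window in both libraries whose gene bodies were at 0%. Accession 6024 followed with 53.3% and 53.6%, and the other 26 accessions had means between 66.2% and 100%. In these no neighbours in the order were separated by their ranges.

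The accession difference in the QQS promoter was called in CG with F = 12.9 and an adjusted p of 9.51e-15 by the moderated F-test of limma, where 26.2% of all loci and 17.9% of protein-coding genes were called. In CHG the promoter mean was 26.8 ± 14.4%, the highest accession mean was 50.5% in 9588, and the adjusted p was 0.00376, where 14.7% of all loci and 10.1% of protein-coding genes were called. That CHG call was lost without the libraries of replicate 3 (adjusted p = 0.301) or of replicate 4 (adjusted p = 0.198). In CHH the promoter mean was 3.90 ± 2.64% and the adjusted p by limma was 0.152, in a table where 10% of all loci and 6.85% of protein-coding genes were called. Its adjusted p on the arcsine square root scale was 0.0228.

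On average the QQS gene body and promoter differed little, and single accessions differed in opposite directions. The mean CG level over accessions was 68.6% in the gene body and 71.2% in the promoter, a difference of -2.62 ± 15.4 percentage points (SD, n = 31 accessions) with an adjusted p of 0.440 by limma's moderated test of the paired difference. The background of that test was 42% of loci called with the gene body above the promoter and 9.83% with it below. In Col-0 the gene body was below the promoter in all 4 libraries, with 35.7% in the gene body and 80.8% in the promoter, a difference of -45.1 ± 14.2 percentage points. The difference was -33.5 ± 18.1 percentage points in 6184 (n = 2), -33.1 ± 10.9 in 5856 (n = 4) and -27.2 ± 15.5 in 1254 (n = 2). Of these, 6909, 6184 and 5856 had intermediate gene-body means, and 1254 had CG methylation in the promoter window with none in the gene body.

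In CHG the QQS gene body was -0.575 ± 9.26 percentage points from its promoter (adjusted p = 0.870), where 17.4% of loci were called above and 6.52% below. In CHH the difference was -0.170 ± 2.13 percentage points (adjusted p = 0.841 by limma), where 10.5% were called above and 6.45% below.

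In accession 9057 the QQS gene body was above the promoter, with 95.3% in the gene body and 68.8% in the promoter (difference 26.5 ± 8.09 percentage points, n = 2). Differences of 15.9 ± 7.50 in 5784 and 13.8 ± 7.27 in 5772 (n = 4 each) had the same direction in every library. Among 29 accessions with at least 2 libraries, every library had the gene body below the promoter in 7 and above it in 5. With so few libraries per accession this can also happen by chance. At QQS the same counts were 8 below and 3 above in CHG, and 3 below and 4 above in CHH. At BNS in CG they were 0 below and 11 above among 28 accessions, and at SUP in CG 0 and 0. Beyond these 3 genes such counts were not taken. The gap itself differed between accessions in CG, with an adjusted p of 8.33e-10 by the moderated F-test, a test added after the values had been seen, against 42.1% of all loci called. In CHG and CHH the gap was not called, with adjusted p of 0.524 and 0.655 by the same test, where 10.7% and 6.48% of loci were called.

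**Figure D3:**
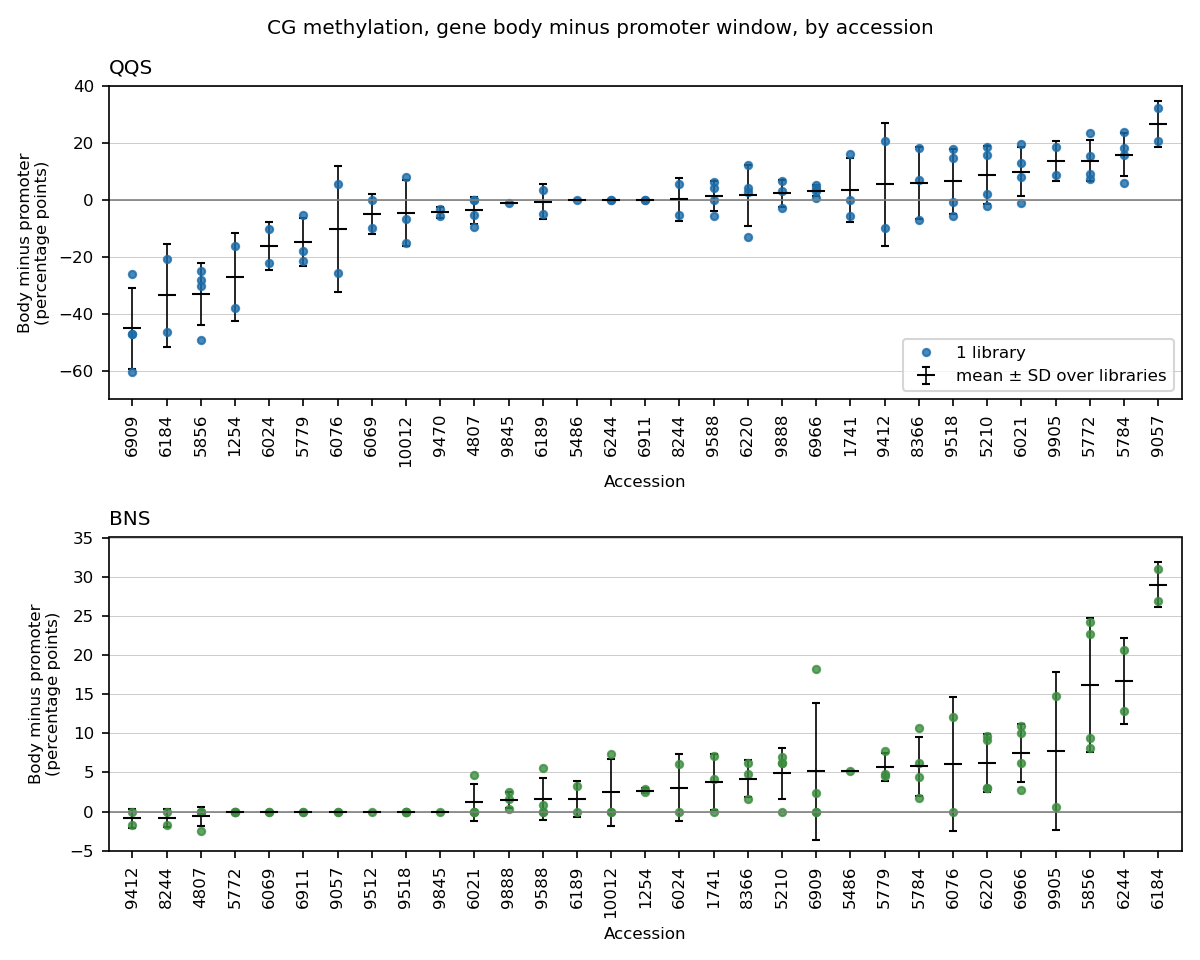
Gene-body minus promoter CG level (percentage points) of QQS (above) and BNS (below) in each library (points) with the mean ± SD of an accession (bars), ordered from the lowest to the highest mean. QQS spans -45.1 points in Col-0 (6909) to 26.5 points in 9057, and BNS reaches 29.0 points in 6184.

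The low QQS levels in the 4 accessions did not extend to the TEs upstream. The TE gene AT3G30722, which ends 340 bp before QQS on the same strand, had a CG level of 81.1% in 1254, 86.9% in 6069, 83.4% in 6244 and 90.3% in 6911, beside QQS gene bodies at 0%. Over all 31 accessions with data AT3G30722 had 79.6 ± 10.6% and a lowest mean of 49.8%. The larger TE fragment AT3TE51140, which ends 730 bp before QQS, had 80.8%, 88.8%, 82.2% and 91.4% in the same 4 accessions. The accession term was called at both, with adjusted p of 8.57e-07 and 5.05e-08 by limma. The low end of AT3TE51140 was the value of 0% in the only library of 9057 with data there, an accession whose QQS gene body had 95.3%.

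The TE fragment AT3TE51150 is 1921 bp long and contains the whole QQS gene, and it kept a CG level of 47.7% in 1254, 24.6% in 6069, 32.7% in 6244 and 33.8% in 6911. Over 31 accessions it had 72.7 ± 17.5%, with an adjusted p of 1.08e-16. A noncoding locus of the authors' own annotation, CUFF_NC.6130, lies on the other strand and overlaps the first 432 bp of QQS. It had 5.70% in 1254 and 0% in 6069, 6244 and 6911, against 72.6% in Col-0, and its adjusted p over accessions was 1.78e-18 in a table where 72.5% of loci were called. The level in Col-0 at this antisense locus lay between the gene body's 35.7% and the promoter's 80.8%. All of the locus falls within the promoter window and gene body of QQS, so its levels come from stretches that they already cover.

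Downstream of QQS the levels were lower. The TE fragment AT3TE51155 starts 418 bp past the end of QQS and had 26.2 ± 18.3% CG over 32 accessions. In the accessions whose QQS gene body was at 0% it had 24.9% in 1254, 50.2% in 6069, 17.2% in 6244 and 29.9% in 6911. In 6021, whose QQS gene body had 89.4%, it had 0%. Its adjusted p over accessions was 5.48e-05. The next protein-coding gene, GDU6 (AT3G30725), lies 2538 bp downstream and had a mean of 1.09% with no accession difference called (adjusted p = 0.980). Its highest accession mean, 25.0% in 4807, came from 1 library at 100%, a value that may rest on few reads.

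**Figure D4:**
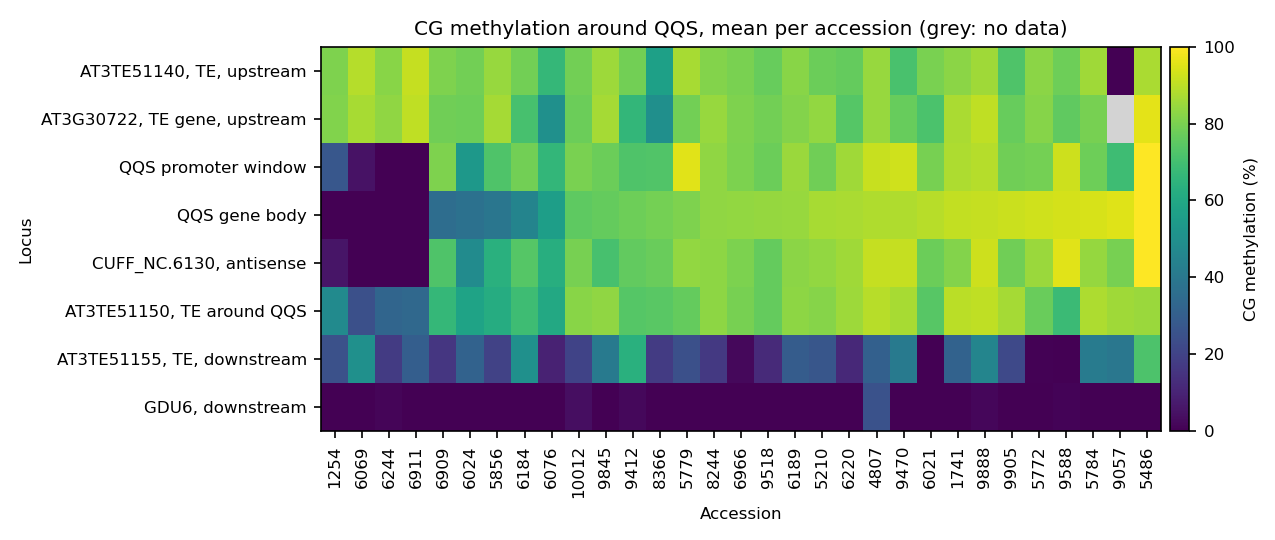
Mean CG methylation level per accession (colour, 0% to 100%, grey where no data remained) of QQS and of neighbouring loci, from upstream at the top to downstream at the bottom, with accessions ordered by QQS gene-body level. In 1254, 6069, 6244 and 6911 the gene body of QQS is at 0% and its promoter at 0% to 27.2%, while AT3TE51140 and AT3G30722 upstream stay between 80.8% and 91.4%.

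BNS lies on chromosome 1 (chr1:27516572-27517882, minus strand, 1311 bp). Its gene body carried little CG methylation in most accessions and more in a few. The CG mean over 32 accessions was 5.33 ± 7.10%, near the median protein-coding gene (percentile 48.0), and no accession mean was over 50%. BNS exceeded the mean of protein-coding genes of the same accession in 3 of 32 accessions. That mean was 13.7% over accessions, well above the median gene's 6.01%, so a gene near the median mostly falls below it. All libraries of 10 accessions were at 0%, 39 of 88 libraries in all. Accession 6184 had the highest mean, with 31.0% and 26.9%, and 9470 the next, with 0% and 50%. Accession 6244 followed with 20.6% and 12.8%, and 5856 with 24.2%, 22.7%, 8.16% and 9.38%. Col-0 had 18.2% in replicate 1, 2.33% in replicate 2 and 0% in replicates 3 and 4, and both libraries of Cvi-0 (6911) were at 0%.

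In accession 9470 the BNS promoter window in all contexts and the gene body in CHG carried no data in either library, so its CG values may rest on few reads. The remaining accession means lay between 0% and 9.19%. No pair of neighbours in the BNS order was separated by the replicate ranges, yet the whole set differed by more than the spread between replicates, with F = 2.99 and an adjusted p of 0.000354 by the moderated F-test of limma. Such a call was the usual outcome, since 64% of all loci and 77.1% of protein-coding genes were called. The SD of BNS over accessions was at percentile 58.8 of protein-coding genes. Without 9470 the adjusted p of BNS was 7.76e-08.

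In CHG the BNS gene body had a mean of 0.529%, and its highest accession was 8366 with 6.25%, 4.69% and 1.32%. The accession difference was called with an adjusted p of 0.0162 by limma, where 20.2% of all loci and 13.4% of protein-coding genes were called. The BNS call was lost without accession 8366 (adjusted p = 0.832). It was also lost without replicate 1 (adjusted p = 0.567), without replicate 2 (adjusted p = 0.372) and on the arcsine square root scale (adjusted p = 0.192). In CHH the BNS gene body had 0.434 ± 0.287%, beside a median of 0.431% over protein-coding genes, and the accession difference was not called (adjusted p = 0.818).

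The promoter window of BNS (chr1:27517683-27518082) was nearly free of methylation. It had CG levels above 0 in 10 of 86 libraries, the highest being 5.56% in a library of 5784, and a mean of 0.327%. Its accession difference was not called in CG (adjusted p = 0.703) or CHH (adjusted p = 0.443). In CHG the mean was 0.439% and the adjusted p was 0.0272, where 14.7% of all loci and 10.1% of protein-coding genes were called. That BNS result rested on few libraries, since 77 of 86 were at 0 and the highest level was 5.26% in the single library of 9845. Without that accession the adjusted p was 0.564, without replicate 3 it was 0.173 and without replicate 4 it was 0.345.

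The BNS gene body was above its promoter in CG in 21 of 31 accessions. The means were 4.69% in the gene body and 0.327% in the promoter, a difference of 4.37 ± 6.28 percentage points (SD, n = 31) with an adjusted p of 0.00134 by limma's moderated paired test, in the table where 42% of loci were called in that direction. The difference was 29.0 ± 2.91 percentage points in 6184, 16.7 ± 5.49 in 6244 (n = 2 each) and 16.1 ± 8.53 in 5856 (n = 4), and every promoter library of these 3 accessions was at 0% in CG. The gap differed between accessions with an adjusted p of 3.91e-07 in CG and 0.00931 in CHG, by the test added after the values had been seen. Of all loci, 42.1% were called by that test in CG and 10.7% in CHG. The CHG result was lost without replicate 1 (adjusted p = 0.167), replicate 2 (adjusted p = 0.134) or replicate 4 (adjusted p = 0.0701).

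The gene AT1G73180 starts 8 bp from the start of BNS on the opposite strand, so that both share the BNS promoter window. Its gene body had 35.2 ± 6.62% CG over 32 accessions, with 41.5% in 6184 and 41.4% in 6244, and its adjusted p was 0.000734. On the other side AT1G73170, 1734 bp past the end of BNS, had 10.3 ± 7.99% with an adjusted p of 7.27e-14, and its highest mean, 34.9 ± 9.11% (n = 2), was also in 6184. The level of 6184 over all genes was not set beside these values. Whether its high levels are particular to this stretch was not tested. The annotated TE within 3 kb, AT1TE90030, is 22 bp long and had 5.79 ± 12.1% with no accession difference called (adjusted p = 0.345).

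SUP lies on chromosome 3 (chr3:8242256-8243372, plus strand, 1117 bp) and was nearly free of methylation in these leaves. Its gene body was at 0% CG in 85 of 88 libraries, and the 3 others had 2.56% in 1254, 2.63% in 6021 and 6.67% in 9888. The mean was 0.130 ± 0.457% over 32 accessions, at percentile 0.140 among protein-coding genes. CHG levels of the gene body reached 2.86% and CHH levels 2.90% in the highest library, with means of 0.396% and 0.417%. The adjusted p of the accession difference by limma were 0.894 in CG, 0.611 in CHG and 0.751 in CHH, so no difference beyond the replicate spread was detectable. Of the 6 SUP tests over both regions, 0 passed the adjusted threshold and 0 had an unadjusted p under 0.05. The shares of all loci called in CG, CHG and CHH were 64%, 20.2% and 13.9% for gene bodies and 26.2%, 14.7% and 10% for promoters. A locus without a call was thus the more common outcome in all of these but gene-body CG. In all 3 contexts every gene-body accession mean of SUP was under 5%.

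**Figure D5:**
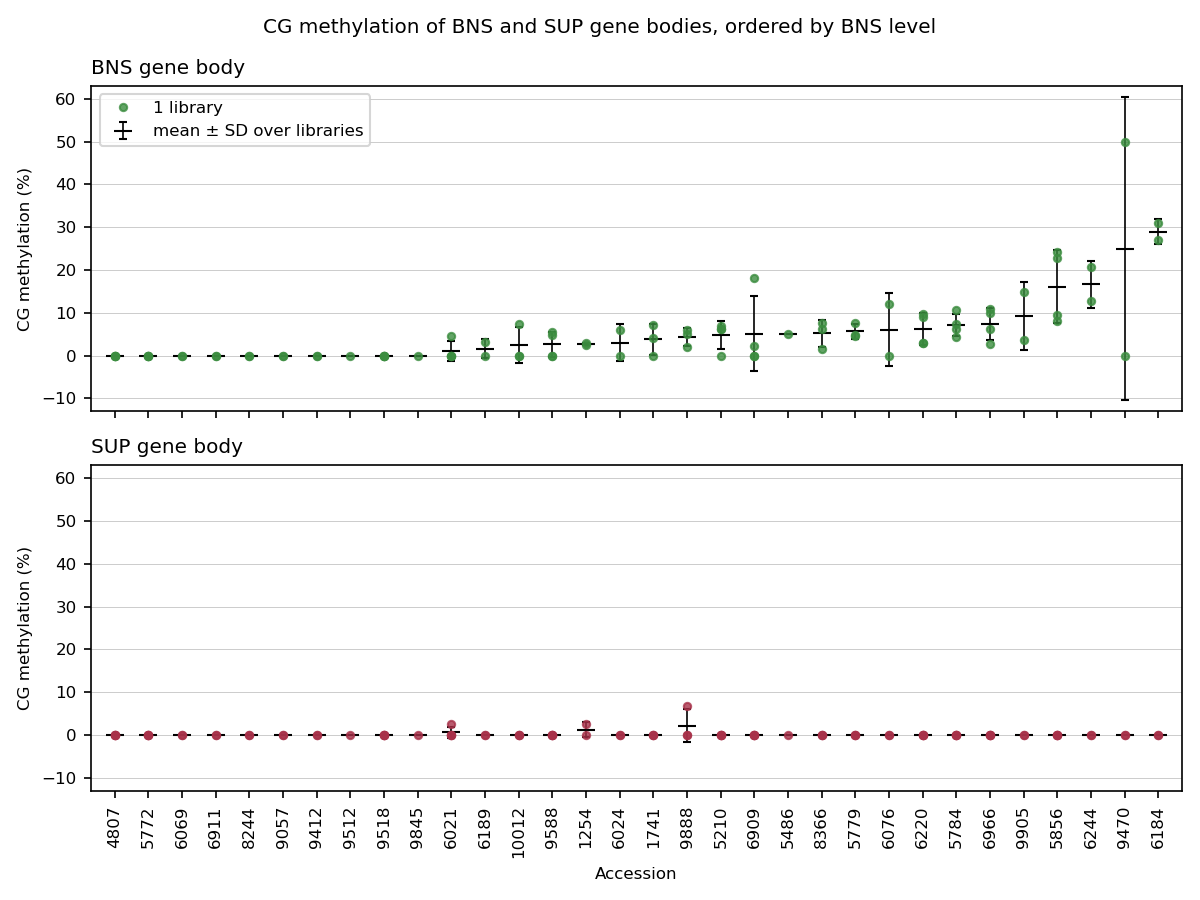
CG methylation level (percent) of the gene bodies of BNS (above) and SUP (below) in each library (points) with the mean ± SD of an accession (bars), in the order of the BNS level. BNS reaches 31.0% in 6184, its 50% point is a library of 9470 whose promoter window had no data, and no SUP library exceeds 6.67%.

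In the SUP promoter window (chr3:8242056-8242455) 85 of 87 libraries were at 0% CG. The 2 exceptions were replicate 2 of 5856 at 100% and replicate 2 of 5772 at 20%. The library of 5856 had 0% in CHG and in CHH in the same window, and the other 3 libraries of that accession had 0% in CG. All accession means of the SUP promoter in CHG and CHH were under 5%, and the adjusted p of the accession difference were 1 in CG, 0.965 in CHG and 0.951 in CHH by limma. No Araport11 gene or TE other than SUP lies within 3 kb of it.

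The members thus differed in how far apart the accessions stood. The SD over accession means of gene-body CG was 32.0 percentage points at QQS, 7.10 at BNS and 0.457 at SUP, at percentiles 99.0, 58.8 and 7.03 of protein-coding genes. At QQS, 6244 and 6911 were at 0% in CG in every library of the gene body and the promoter, while at BNS 6244 was among the highest accessions and 6911 was at 0%. No member was called for the growth round, with adjusted p between 0.870 and 1 over the 18 combinations of gene, region and context, and the lowest unadjusted p among them was 0.0629.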

How the data were processed

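Methylation levels were deposited by the authors as fractions from 0 to 1 per locus and library, in tables for CG, CHG and CHH, gene body and promoter, and Araport11 or their own annotation. The build was TAIR10, per the submitters' processing notes. No source used here names the aligner, the methylation caller or the formula behind a fraction. A cytosine of the build that is T in an accession would read as unmethylated. Libraries were paired 100 bp reads of tagmented, bisulfite-converted DNA, per the labels' protocols.

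No missing value is marked. From the values, a fraction of exactly 1 in CHH was taken to mean that the region had no data in any context. A CHG fraction of exactly 1 was set to missing in that context, and CG loci at 1 in all libraries left were removed. This made 20.4%, 24.2% and 15.9% of gene-body values of all loci missing in CG, CHG and CHH. A short region with few reads can read 0 or 1 by chance, and no counts were there to give intervals.

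Loci with a value in at least 80% of libraries entered the fits (44408, 40020 and 45768 gene bodies). Accessions were compared with a one-way F-test, and growth rounds beside accession, with variance moderated by limma 3.58.1 in R 4.3.3 and Benjamini-Hochberg adjustment over all loci, at an adjusted p under 0.05. Body minus promoter was tested on accession means. The functions were tested on simulated data. The replicate number marks a shared growth round, per the series' design text, so it pairs libraries. Deviations of libraries of different accessions had a mean r of 0.00159 within a round and -0.0005 between rounds in CG over 24121 genes.

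The 3 genes and the gene lists were chosen with earlier results of these data known. Named were the 3 genes, loci within 3 kb of them, listed genes that passed the F-test (up to 4 a list), NF-YC4 outside this rule as the only gene of its list, and, by the highest Pearson r, up to 5 similar genes each. Symbols came from RefSeq, for names only. Python 3.11.15, NumPy 2.4.6, pandas 2.3.3 and matplotlib 3.10.9 served the rest. The closest pair of replicate libraries differed by a root mean square of 6.71 percentage points over protein-coding genes.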

Additional observations from a re-analysis of the deposited data

Results flagged for a closer look

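Groups of 4 libraries with some spread were looked at for all QQS measures and for BNS gene-body CG, and not for the other measures. A library was marked when its gap to the nearest other took up more of the group's range than Dixon's 95% limit allows. This met 7 of 74 groups. For independent groups with normal spread, chance marks about 1 in 20, or 3.7. These groups share libraries, and where all others are at 0% a library above 0 is always marked, so that rate is no fair measure here. At QQS gene-body CG, 1 library of 5856 stood apart with 52.6%, above 33.3%, 34.9% and 35.7%, and 1 library of 6966 stood low with 76.0%, below 85.7%, 86.4% and 86.7%. In QQS gene-body CHH, 1 library of 6966 had 10.1%, above 2.13%, 2.31% and 2.70%. In the QQS promoter in CHH, 1 library of 5784 had 11.6%, above 1.15%, 1.54% and 1.79%. At BNS gene-body CG, 1 library of 5210 had 0%, below 6.25%, 6.25% and 6.98%, 1 library of 6021 had 4.65% where the others had 0%, and replicate 1 of Col-0 (6909) had 18.2%, above 2.33% and 0%.

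The gap between gene body and promoter differed between accessions at QQS in CG (adjusted p = 8.33e-10) and at BNS in CG (adjusted p = 3.91e-07) and CHG (adjusted p = 0.00931), by limma's moderated F-test of the gap itself. That test called 42.1% of all loci in CG and 10.7% in CHG.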

How the results depend on the processing

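Results were recomputed with loci with any value, protein-coding genes alone, values as deposited, an arcsine square root scale, growth round as a replicate block, accessions with at least 2 libraries, each replicate left out and the highest accession left out. Of their results, 242 kept their side of the threshold, 7 moved past it and 12 fell short of it. No called body minus promoter difference changed direction. Those not called could change direction, as in QQS CHG, which ran from -2.36 to 0.405 points with 1 replicate left out at a time. With settings chosen after seeing the data (every CG value of exactly 1 as missing, BNS without 9470, the gap between accessions), 69 kept their side of the threshold, 1 moved past it and 5 fell short of it. The cause was not tested. With values as deposited, the levels of exactly 1 that were read here as missing count as fully methylated. No label states that reading. By limma's F-test adjusted p were then 7.06e-30 for QQS gene-body CHH and 3.89e-24 for QQS promoter CHH. They were 1.81e-56 and 6.17e-64 for the BNS promoter in CG and CHH, and 2.65e-60 for the BNS gap in CHH between accessions. The BNS body minus promoter difference in CG was then 1.89 points (adjusted p = 0.575), and the BNS gap in CHG between accessions had 0.133.

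On the arcsine scale, adjusted p were 0.00347 and 0.0228 for QQS CHH in gene body and promoter, 0.192 and 0.163 for BNS CHG in gene body and promoter, and 0.201 for the BNS gap in CHG. The BNS body minus promoter difference in CHH was called there at 0.0183 (adjusted p = 0.0270). In percentage points it was -0.0511 and not called. With accessions of at least 2 libraries BNS promoter CHG had 0.478. Without the highest accession BNS CHG had 0.832 in the gene body and 0.564 in the promoter.

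With 1 replicate left out at a time, adjusted p ran between 2.49e-20 and 8.86e-10 for QQS gene-body CG, 2.79e-08 and 0.00219 for its CHG, 1.05e-10 and 7.35e-08 for promoter CG, and 0.00222 and 0.301 for promoter CHG. For BNS they ran between 1.48e-06 and 0.0246 for gene-body CG, 0.00434 and 0.567 for its CHG, 0.00235 and 0.345 for promoter CHG, and 0.00534 and 0.167 for the CHG gap. SUP was called in none. The replicate block changed no call of the accession difference, for example QQS gene-body CG at 3.93e-22 and BNS gene-body CG at 0.000518. Depth is unknown, so values at 0 or 100% in short regions carry no interval, and in CG a true level of 100% cannot be told apart from missing data.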

Other observations

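Other genes of the pathways were described by the same moderated F-test of limma. All 11 listed subunits of the anaphase-promoting complex beside BNS were called for gene-body CG, against 77.1% of protein-coding genes, and their median level was 37.3%, against 6.01% over protein-coding genes. The highest mean was that of APC2, a cullin subunit, with 57.5 ± 9.99% (SD over accessions). The lowest was that of APC11, the RING subunit, with 2.85 ± 3.30% and an adjusted p of 2.37e-07. APC10, which helps to bind substrates, had 16.5 ± 8.99%. In gene-body CHG 3 of the 11 were called (APC2, HBT and APC10), against 13.4% of protein-coding genes.

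Of 6 zinc finger genes of the SUP type, 2 were called for gene-body CG, against 77.1% of all protein-coding genes. These were ZFP10 with an adjusted p of 7.45e-07 and RBE, which acts in petal development, with 4.81e-05. The highest accession mean was 9.66% at ZFP10, in 9518, and 6.78% at RBE, in 6069. Of 5 floral regulators, 3 were called in the same table, against the same 77.1%. They were the organ identity genes AG (adjusted p = 3.81e-13) and PI (adjusted p = 8.04e-13) and the stem cell gene WUS (adjusted p = 0.0200). The highest accession mean of AG was 20.3% and that of PI 12.9%, both in accession 6244, and their means over accessions were 1.61% and 1.12%. NF-YC4, the partner of QQS, had 0.344% and was not called (adjusted p = 0.680).

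Genes whose accession means most resembled those of a member were looked up among protein-coding genes with an SD of at least 5 percentage points, as a description over accessions that share libraries. For QQS gene-body CG the nearest of 14395 genes was NET2D (AT2G22560, Pearson r = 0.729 over 31 accessions), followed by AT4G06536 (0.702) and AT2G07240 (0.670). For the QQS promoter in CG it was AT4G06536 (0.873), followed by AT5G28920 (0.740). For QQS gene-body CHG it was AT2G10970 (0.738). For BNS gene-body CG the nearest of 14432 genes was LSM2 (AT1G03330, 0.762 over 32 accessions). Most BNS means were low, and 1 of the highest was that of 9470, with libraries at 0% and 50%. Each r named here is the highest or among the highest of many genes, where high values also arise by chance, and no chance level was set beside it.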
